A study of Rattus norvegicus with 20 samples.

Results

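The sortilin family holds 5 sorting receptors, Sorcs1, Sorcs2, Sorcs3, Sort1 and Sorl1, of the 15351 gene symbols that could be given to probes of the rat array used in this study. Members were found by name, as all probes that the array files assign to one of the 5 symbols, which gave 9 probes: 1 for Sorcs3 and 2 for each of the other genes. The family was put forward because of Sorcs3, which had been selected on its difference between the 2 time points in these same animals. The values of that comparison, and the values of each day that enter it, are therefore given for Sorcs3 as a description and without a test.

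All animals were rats aged 2 years with a cortical stroke. The tracer cholera toxin B, coupled first to 1 fluorophore and in a later injection to another, had been placed at the same point of the cortex beside the infarct, and the labels divide the captured neurons into sprouting and non-sprouting ones. The 4 kinds of cell pool were sprouting and non-sprouting neurons of 5 animals in the day 21 cohort, and sprouting and non-sprouting neurons of 5 other animals in the day 7 cohort, where the day is the survival time before the second injection and cells were captured 7 days after that injection. About 300 neurons per cell type were laser-captured from each animal, so each pool is an average over many cells, in which fewer cells of a type and less RNA per cell cannot be told apart. There were no rats without a stroke and no young rats among the samples analysed here, and non-sprouting neurons of the same animal are the only reference.

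Receptors of this family span the membrane once and carry a Vps10p domain, named after a yeast sorting protein, on the outer or luminal side. They shuttle cargo between the trans-Golgi network, endosomes and the cell surface, with retromer, GGA proteins and AP-1 as their partners on the cytosolic side. Sortilin and the SorCS proteins also act at the cell surface, where with the neurotrophin receptor p75 they bind the precursor forms of neurotrophins. In neurons the family is best known for the trafficking of Trk receptors, glutamate receptors and the amyloid precursor protein.

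RNA of the 2 cell types of an animal was hybridised together on 1 array with the sprouting neurons in Cy5 (forward) and on a second array with the dyes exchanged (dye-swap). All ratios below are log2 ratios of sprouting over non-sprouting neurons, and an animal's value is the mean of its forward and its sign-turned dye-swap array. Of the 9 probes, 8 passed the filter on dim probes, for which 1 cell type had to be well above background in both dyes in 3 or more animals of a day, and none was saturated. The number of arrays limits the precision of every value. Across all probes, the forward and dye-swap ratios of an animal correlated with r from -0.026 (day 21, replicate 4) to 0.877 (day 7, replicate 1), and the share of probes well above background lay between 20.6% and 95.4% of an array's channel. The low ends of both came from day 21 replicate 4, so values without it are given where they matter. Markers of neurons were detected: Rbfox3, Snap25 and Syt1 were well above background in 40 of 40 array channels, Camk2a in 37 and Slc17a7 in 31. For Slc17a7 this held in only 4 of 10 channels of the sprouting pools at day 21, against 9 of 10 in each other condition. Markers of other cells were detected too, such as Mbp of oligodendrocytes and Aif1 of microglia in 40 channels and Gfap of astrocytes in 36.

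Sorcs3 is a receptor of the postsynaptic density that binds the adaptor Pick1 and is needed for long-term depression in the mouse hippocampus. Its probe, A_43_P22919, was well above background in every channel of every condition. The 5 day 21 animals had ratios of 0.038, -0.049, -0.16, 0.11 and -0.32, against 0.31, 0.39, 0.39, 0.17 and 0.33 in the 5 day 7 animals. Every day 7 value lay above every day 21 value. At day 7 all 5 animals had more Sorcs3 signal in sprouting than in non-sprouting neurons, while at day 21 this held in 2 of 5. The mean was -0.075 ± 0.17 at day 21 and 0.32 ± 0.089 at day 7 (SD, n = 5 animals each), which on the linear scale are sprouting over non-sprouting ratios of 0.949 at day 21 and 1.25 at day 7. The day 21 mean was lower than the day 7 mean by a difference of -0.39 ± 0.083 (SE).

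**Figure D1:**
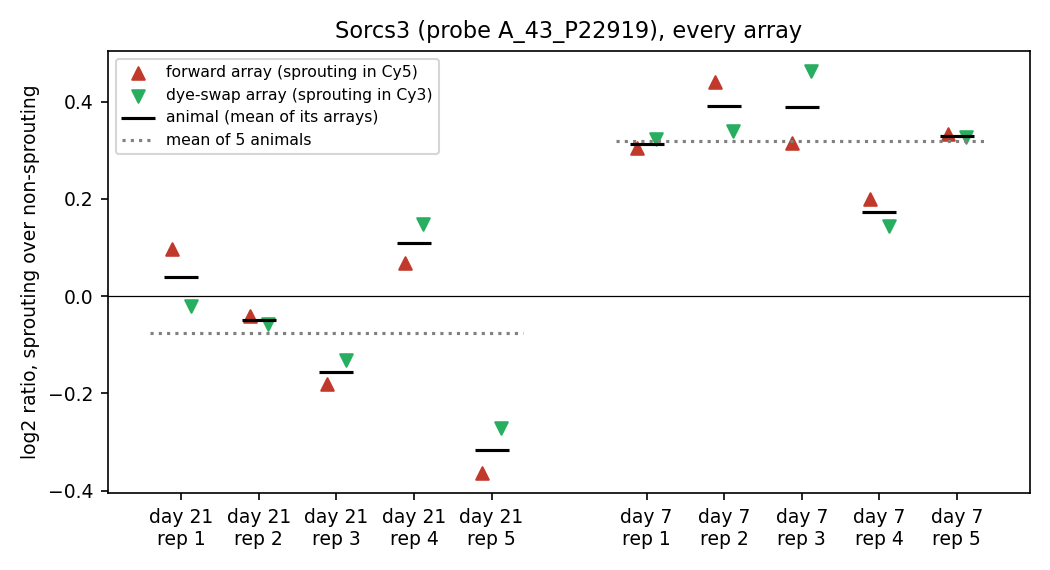
Log2 ratio of sprouting over non-sprouting neurons for the Sorcs3 probe on each of the 20 arrays, by animal (replicate, horizontal axis), with day 21 on the left and day 7 on the right. Triangles are single arrays, bars are animals and dotted lines are day means; all 10 day 7 arrays lie above 0, against 3 of the 10 day 21 arrays.

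The dyes made little difference to the Sorcs3 value. The forward arrays gave a day mean of -0.084 at day 21 and 0.32 at day 7, and the dye-swap arrays gave -0.066 at day 21 and 0.32 at day 7. The ratio was above 0 on 3 of 10 arrays at day 21 and on 10 of 10 arrays at day 7. The 2 arrays of an animal were on average 0.069 apart for this probe, with a median of 0.144 over all tested probes, and 4.78% of the tested probes had a smaller gap. The other tested probes of the family had gaps of 0.12 to 0.24. Across the array, 272 of 28613 probes with a value in every animal (0.951%) had day 21 ratios that were all below or all above the day 7 ratios. Since Sorcs3 was chosen by this contrast, its place among them is part of the choice.

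No probe on the array passed an adjusted p of 0.05 in limma for the difference between the days (0 of 34224, 0%), and 4.12% had an unadjusted p under 0.05. The arrays were scanned on 5 days, and only 1 scan day held both cohorts. Within it the day 21 animal had a Sorcs3 ratio of 0.038, against a mean of 0.25 in the 2 day 7 animals, a difference of -0.21. Without day 21 replicate 4 the difference was -0.44, and without day 21 replicate 5 it was -0.33, with values between them when any of the other animals was left out. The authors' deposited ratios gave -0.39 and the scanner software's own ratios gave -0.46.

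Averaged over both days, a contrast other than the one by which Sorcs3 was chosen, its ratio was 0.12 ± 0.042 (SE), with a 95% interval of 0.030 to 0.21. This mean rests on the same animal values and the same estimate of spread as the difference, so it is not free of the choice. It did not pass the threshold (adjusted p = 0.735 in limma), and neither did any other probe on the array (0 of 34224, 0%, with 6.42% at an unadjusted p under 0.05).

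Set apart by cell type, the Sorcs3 signal differed more between the days in the non-sprouting pools than in the sprouting pools. The gap between the changes of the pools is the ratio difference by which Sorcs3 was chosen, so this order is part of the choice. In sprouting neurons the normalized log2 intensity was 10.85, 10.90, 10.83, 10.49 and 11.06 at day 21, against 11.00, 9.44, 10.55, 10.36 and 10.91 at day 7. In non-sprouting neurons it was 10.81, 10.95, 10.98, 10.38 and 11.37 at day 21, against 10.69, 9.05, 10.16, 10.19 and 10.58 at day 7. Both pools of day 7 replicate 2 stood lowest, and the days overlapped in each cell type. The day 21 mean minus the day 7 mean was 0.37 ± 0.26 (SE) in sprouting and 0.77 ± 0.30 in non-sprouting neurons. Without day 7 replicate 2 these values were 0.12 and 0.49. They also depended on how arrays were brought to a common scale: with the arrays scaled by their medians, which gave the median tested probe a difference of -0.20 in sprouting and -0.19 in non-sprouting neurons, Sorcs3 had -0.086 and 0.31, while under the quantile scaling used above the median tested probe had -0.071 and -0.068. Relative to the median probe, the Sorcs3 mean was thus higher at day 21 than at day 7 in both cell types under both scalings. With the arrays scaled by their medians, the Sorcs3 differences had SEs of 0.42 in sprouting and 0.43 in non-sprouting neurons, so this order is not settled. In sprouting pools the sign of the Sorcs3 difference itself turned with the scaling. The ratio within an array does not depend on this choice.

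**Figure D2:**
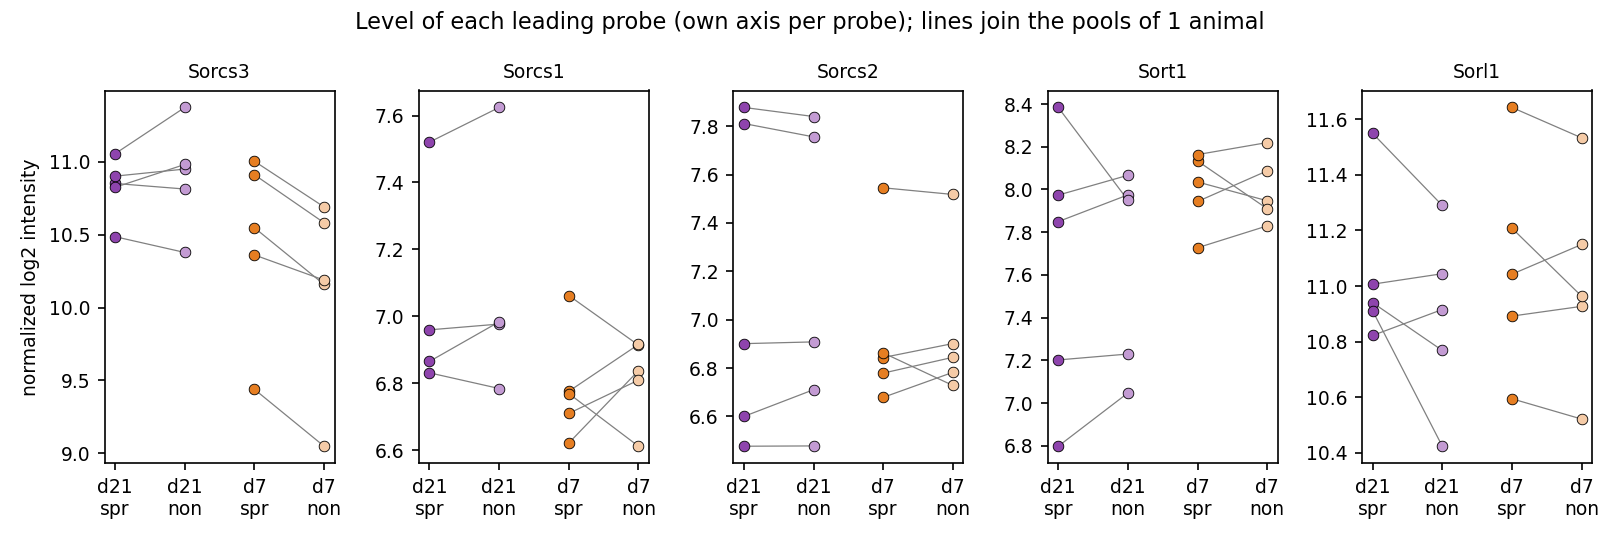
Normalized log2 intensity of the leading probe of each gene (vertical axis, own scale per gene) in sprouting (spr) and non-sprouting (non) pools, with day 21 (d21) left of day 7 (d7). Lines join the 2 pools of an animal; for Sorcs3 all 5 lines fall to the non-sprouting side at day 7, with means of 10.45 in sprouting and 10.13 in non-sprouting pools.

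Markers of 9 cell classes and cortical layers were set beside the Sorcs3 values, and their part in them was not tested. None of the 41 tested markers passed the adjusted threshold in limma for the difference in ratio between the days. At an unadjusted p under 0.05 there were 3 (7.32%, against 4.12% of all tested probes), which were Tle4 of the deep cortical layers at 0.19 ± 0.061 (SE), Gja1 of the astrocytes at 0.21 ± 0.078 and Vwf of the endothelium at -0.37 ± 0.13. Among 4 markers of neurons in general (Rbfox3, Snap25, Map2 and Syt1), 3 had a negative day 21 minus day 7 difference in ratio, with a median of -0.20. Their median ratio was -0.15, -0.14, 0.20, -0.23 and -0.76 in the 5 day 21 animals, against 0.15, 0.23, -0.0089, -0.20 and 0.21 in the 5 day 7 animals. Day 21 replicate 5 had the lowest ratio both for these markers and for Sorcs3, while day 21 replicate 4 had a low marker median and the highest day 21 ratio of Sorcs3. The summed linear intensity of the 4 genes ranged from 27060 to 32700 in sprouting and 18610 to 46270 in non-sprouting pools at day 21, and from 29440 to 38650 in sprouting and 30790 to 38550 in non-sprouting pools at day 7. None of the 4 was below background in a whole condition.

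All 6 astrocyte markers had a positive day 21 minus day 7 difference in ratio, with a median of 0.13, and all 4 endothelial markers tested had a negative one, with a median of -0.13. Some of these were near 0, such as Aqp4 at 0.0086 ± 0.15 (SE) and Flt1 at -0.013 ± 0.040. Over all tested probes 16760 had a positive and 17464 a negative difference. The summed intensity of the astrocyte list was 17890 to 20130 in sprouting and 15690 to 19010 in non-sprouting pools at day 21, and 18680 to 24760 in sprouting and 19340 to 21760 in non-sprouting pools at day 7. That of the endothelial list was 351 to 1480 in sprouting and 453 to 1913 in non-sprouting pools at day 21, and 1517 to 1884 in sprouting and 1615 to 2001 in non-sprouting pools at day 7. Of the 8 microglial and macrophage markers 6 had a negative difference, with a median of -0.19 over the list. Their summed intensity was 4778 to 6867 (median 5659) in sprouting and 5030 to 7188 (median 5921) in non-sprouting pools at day 21. At day 7 it was 7629 to 39360 (median 8072) in sprouting and 6265 to 22490 (median 7586) in non-sprouting pools. In the other 5 lists the difference was positive for 2 of 3 tested markers of pyramidal neurons (median 0.00029), 3 of 6 of interneurons (-0.027), 4 of 5 of oligodendrocytes (0.069), 2 of 3 of deep layers (0.16) and 1 of 2 of upper layers (0.087).

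Sorcs1, whose gene is the next protein-coding gene to Sorcs3 in the rat RefSeq annotation, sorts AMPA-type glutamate receptors to the surface of neurons. Its brighter probe, A_44_P177983, had ratios of -0.017, 0.047, -0.12 and -0.10 in 4 day 21 animals, against 0.15, -0.22, -0.14, -0.10 and 0.16 in the 5 day 7 animals. The value of day 21 replicate 4 is missing, because the spot was marked as an outlier on its dye-swap array. The signs were mixed in each cohort, and the day 21 values lay within the range of those at day 7. The means were -0.048 ± 0.077 at day 21 (SD, n = 4) and -0.030 ± 0.17 at day 7 (SD, n = 5), with a difference of -0.018 (95% interval -0.22 to 0.19, adjusted p = 0.975 in limma).

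The second Sorcs1 probe, A_44_P344642, had means of -0.021 ± 0.078 at day 21 and 0.0099 ± 0.051 at day 7 (SD, n = 5 each), and its difference of -0.031 had an interval of -0.14 to 0.083. Both probes were dim, with 33 of 40 channels well above background each. The offset of 50 added to intensities narrows the ratios of dim probes. With the scanner software's own ratios the difference of the brighter probe was -0.15 ± 0.26 (SE). Its SE was 0.091 in the fit used above and 0.082 without background correction. The 2 probes differed in how they took the dyes: at day 7 the forward arrays gave 0.071 and the dye-swap arrays -0.13 for the brighter probe, while the second probe had a forward mean of -0.12 and a dye-swap mean of 0.14. A dye effect of this kind cancels in an animal's mean.

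Sorcs2 forms a receptor for precursor neurotrophins with p75 and is known in mouse neurons for growth cone retraction and for the trafficking of TrkB and of the glutamate transporter encoded by Slc1a1. Its brighter probe, A_43_P18895, had ratios of -0.0012, -0.0072, -0.11, 0.055 and 0.038 at day 21, against -0.065, 0.028, -0.058, -0.10 and 0.13 at day 7. The cohorts overlapped across their whole range. The mean was -0.0053 ± 0.064 at day 21 and -0.013 ± 0.095 at day 7 (SD, n = 5 each), with a difference of 0.0075 (95% interval -0.12 to 0.14, adjusted p = 0.983 in limma). This probe was dim too. Its day 7 mean was -0.078 ± 0.087 (SE) with the scanner software's own ratios, against -0.013 ± 0.041 in the fit used here. The second probe, A_44_P316381, had means of -0.053 ± 0.11 at day 21 and -0.098 ± 0.20 at day 7 (SD, n = 5 each). The day 7 animal furthest from the others was replicate 3 at -0.45, where both arrays gave a negative ratio (-0.49 forward and -0.41 dye-swap). Its difference was 0.044 with an interval of -0.17 to 0.26.

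The levels of Sorcs2 varied more between animals than between cell types, but the pools of an animal share their arrays. In sprouting neurons the brighter probe had a normalized log2 intensity of 6.48, 6.90, 6.60, 7.81 and 7.88 at day 21, against 6.78, 7.55, 6.84, 6.68 and 6.86 at day 7, and the non-sprouting pool of each animal was within 0.14 of its sprouting pool. The second probe reached 8.95 in sprouting and 8.92 in non-sprouting neurons of day 21 replicate 5, against 6.25 to 7.60 in the sprouting pools of the other 9 animals. Over the 20 pools the levels of the 2 probes had a correlation of 0.857, and over the 10 animals their ratios had one of 0.238. Arrays of the same RNA could differ widely in level. In sprouting neurons of day 21 replicate 4 the second probe read 6.50 on the forward and 8.70 on the dye-swap array. In those of day 7 replicate 2 the brighter probe read 6.75 and 8.34. How much of the level spread and of its correlation lies between arrays was not tested.

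Sort1 encodes sortilin, a receptor for neurotensin, progranulin and precursor neurotrophins that also directs brain-derived neurotrophic factor into the regulated secretory pathway. Its brighter probe, A_44_P445572, had ratios of -0.093, -0.13, 0.43, -0.028 and -0.25 at day 21, against -0.10, 0.088, 0.22, -0.14 and -0.056 at day 7. Most animals of each cohort were a little below 0, with replicate 3 of each cohort the highest. The mean was -0.012 ± 0.26 at day 21 and 0.0018 ± 0.15 at day 7 (SD, n = 5 each), and the difference of -0.014 had a 95% interval of -0.29 to 0.26 (adjusted p = 0.985 in limma).

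The second Sort1 probe, A_43_P10888, had ratios of 0.050, -0.42, 0.20, 0.32 and 0.27 at day 21, against -0.32, 0.28, 0.32, -0.079 and 0.058 at day 7. Its means were 0.082 ± 0.30 at day 21 and 0.051 ± 0.27 at day 7, with a difference of 0.031 and an interval of -0.33 to 0.39. The 2 Sort1 probes correlated over animals with r = 0.417 in their ratios. The level of the brighter probe was lowest in day 21 replicates 4 and 5, at 7.20 and 6.80 in sprouting and 7.23 and 7.05 in non-sprouting pools, against 7.73 to 8.16 in sprouting and 7.83 to 8.22 in non-sprouting pools at day 7. The day 21 minus day 7 difference in level was -0.36 ± 0.26 (SE) in sprouting and -0.34 ± 0.21 in non-sprouting neurons and did not pass the test (adjusted p = 0.485 and 0.415 in limma).

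Sorl1, also called SorLA or LR11, keeps the amyloid precursor protein away from the endosomes where it is cleaved. Its brighter probe, A_42_P552341, was well above background in every channel and had ratios of -0.093, -0.038, 0.26, 0.17 and 0.49 in the day 21 animals, against 0.11, 0.073, -0.11, -0.035 and 0.24 in the day 7 animals. Each cohort had 3 animals above 0, and the highest was day 21 replicate 5, the animal with the lowest Sorcs3 ratio. The mean was 0.16 ± 0.23 at day 21 and 0.057 ± 0.14 at day 7 (SD, n = 5 each). Neither differed from 0 by limma's test (adjusted p = 0.923 at day 21 and 0.935 at day 7), and the difference of 0.10 had a 95% interval of -0.15 to 0.35 (adjusted p = 0.925). Within the scan day that held both cohorts this difference had the other sign, -0.20.

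The dyes moved Sorl1 more than Sorcs3. At day 7 the brighter Sorl1 probe had a mean of 0.15 on forward and -0.039 on dye-swap arrays. The second Sorl1 probe, A_44_P250291, was the one that failed the filter, being well above background in 3 to 5 of the 10 channels of each condition. At day 21 its forward mean was -0.29 and its dye-swap mean 0.25, and these cancelled to -0.020 ± 0.077 (SD, n = 5).

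**Figure D3:**
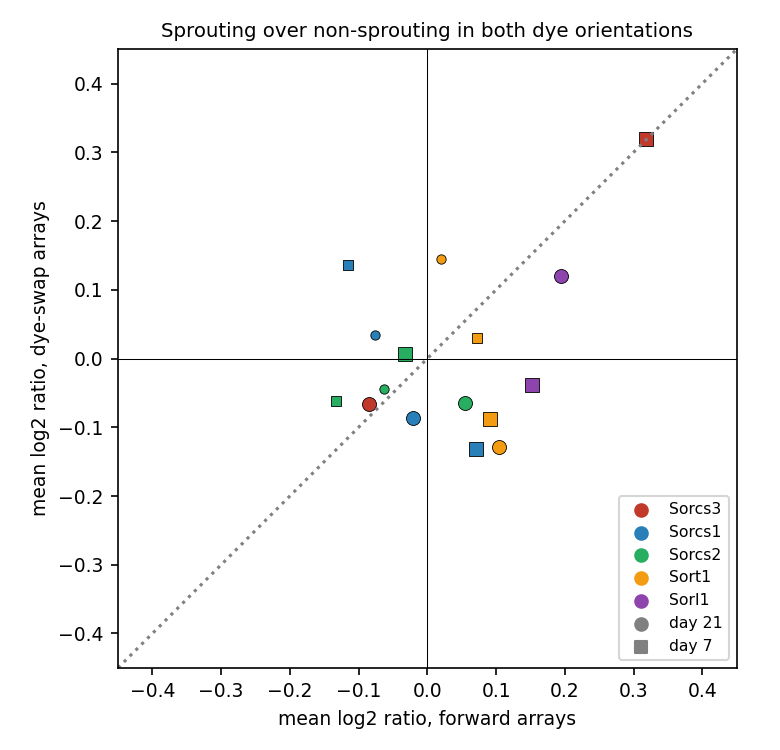
Mean log2 ratio of sprouting over non-sprouting neurons on forward arrays (horizontal axis) and on dye-swap arrays (vertical axis) for the 8 tested probes, with circles for day 21 and squares for day 7, and small symbols for the second probe of a gene. The Sorcs3 points lie on the dotted line of equality, at 0.32 on both axes at day 7, while 8 of the 14 points of the other genes lie on opposite sides of 0 on the 2 axes.

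Taking the family as a whole, none of the 7 tested probes of Sorcs1, Sorcs2, Sort1 and Sorl1 passed an adjusted p of 0.05 in limma, and none had an unadjusted p under 0.05, for the ratio at day 21, the ratio at day 7, their difference or their mean. On the whole array no probe passed the adjusted threshold at day 21 (0 of 34225, 0%) or at day 7 (0 of 34224, 0%), and 4.75% at day 21 and 6.05% at day 7 had an unadjusted p under 0.05. In the levels, the same 7 probes had day 21 minus day 7 differences of -0.36 to 0.77 in sprouting and -0.34 to 0.72 in non-sprouting neurons, none of them with an unadjusted p under 0.05, when 15.3% of tested probes had one in sprouting and 15.6% in non-sprouting neurons and 0% passed the adjusted threshold in either. The differences between days in the ratio were between -0.031 and 0.10 for these 7 probes. Their 95% intervals had lower ends of -0.33 to -0.12 and upper ends of 0.083 to 0.39. That of Sorcs3 was -0.39, but Sorcs3 was chosen by this difference, so its distance from the other members is part of the choice. The ratios of the leading Sorl1 and Sorcs3 probes had a correlation of -0.517 over the 10 animals, which share their arrays, and those of Sorcs3 with the 2 Sorcs1 probes had 0.122, over the 9 animals with a value, and 0.368. Probes of the same gene did not follow each other closely in their ratios, with correlations of 0.417 for Sort1, 0.238 for Sorcs2, 0.025 for Sorcs1 and -0.093 for Sorl1, whose second probe failed the filter.

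**Figure D4:**
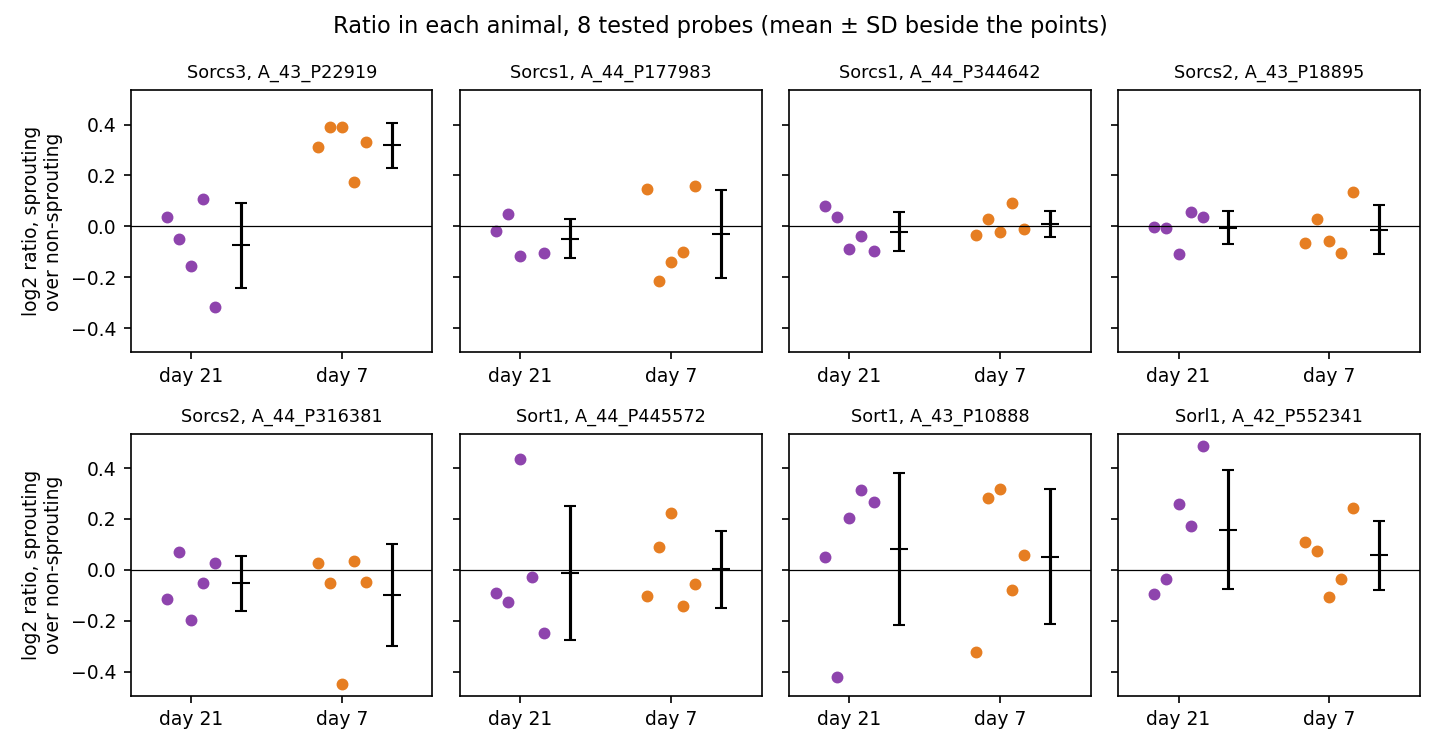
Log2 ratio of sprouting over non-sprouting neurons for the 8 tested probes (vertical axis), 1 point per animal, with day 21 left of day 7 in each panel and the mean ± SD beside the points. Only in the Sorcs3 panel do the 2 cohorts not overlap, with -0.32 to 0.11 at day 21 and 0.17 to 0.39 at day 7. Sorcs3 was chosen by this contrast, and over the array 272 of 28613 probes (0.951%) had cohorts that did not overlap.

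Among the genes whose ratio over the 10 animals was most like that of Sorcs3 were Csnk1a1, a casein kinase (r = 0.942), Dag1, which encodes dystroglycan (0.903), Eif2ak1, a kinase of the translation factor eIF2 (0.901), and Rwdd1 (0.896). Their ratios differed between day 21 and day 7 by -0.44 ± 0.11, -0.19 ± 0.068, -0.27 ± 0.059 and -0.34 ± 0.086 (SE) in that order. Of 28612 probes, 92 had a correlation with Sorcs3 above 0.8. These values are a description over animals that share the split into cohorts. By level over the 20 pools the most alike were Afdn, which encodes the junction protein afadin (r = 0.932), Pals2, a scaffold protein (0.927), the chaperone gene Hsp90ab1 (0.927), the peptidase gene Npepps (0.920), and Rabep1, whose product acts in the fusion of early endosomes (0.918), with 149 probes above 0.8. The pools of an animal share their arrays, and none of the genes named here is a member of the sortilin family.

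Genes that work with the receptors were looked up in 5 lists, and none of their 50 tested genes passed an adjusted p of 0.05 in limma in any of the 4 contrasts of the ratio. At an unadjusted p under 0.05 there were 2 at day 21, 5 at day 7, 2 in the difference between the days and 3 in the mean of both days. These are 4%, 10%, 4% and 6% of the 50 genes, against 4.75%, 6.05%, 4.12% and 6.42% of all tested probes in the same order. Of 12 ligands 10 were tested, and 7 of them had a negative day 21 minus day 7 difference in ratio, with a median of -0.090. The median over all tested probes was -0.0026, with 17464 negative and 16760 positive. The lowest was Lpl, the lipoprotein lipase gene, at -0.90 ± 0.65 (SE), with ratios of -0.066 at day 21 and 0.83 at day 7, and the highest was Clu, the clusterin gene, at 0.17 ± 0.21. Bdnf had 0.045 ± 0.11. Of the 7 co-receptors and other receptors of these ligands 5 had a negative difference, with a median of -0.10 over the list. Ntrk2, which encodes TrkB, was the lowest at -0.40 ± 0.19, with mean ratios of -0.17 at day 21 and 0.23 at day 7 (adjusted p for the difference = 0.925), and the neurotensin receptor gene Ntsr2 was the highest at 0.14 ± 0.11. Ngfr, the gene of p75, had -0.038 ± 0.12.

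Among 7 tested cargo genes 5 had a negative difference, with a median of -0.084 over the list. Gria2, an AMPA receptor subunit gene, was highest at 0.40 ± 0.45, and App had -0.084 ± 0.14. Of 17 tested adaptor and retromer genes 9 had a negative and 8 a positive difference, with a median of -0.0026, between Snx2 at -0.20 ± 0.12 and Gga1 at 0.23 ± 0.15. Pick1 had -0.078 ± 0.12, and Vps35 was not tested because no probe could be given to it. Of 9 tested genes of receptor processing and signalling 6 had a negative difference, with a median of -0.044 over the list, between Trio, the gene of a guanine nucleotide exchange factor, at -0.17 ± 0.074 and Psen2, a gamma-secretase gene, at 0.063 ± 0.12.

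**Figure D5:**
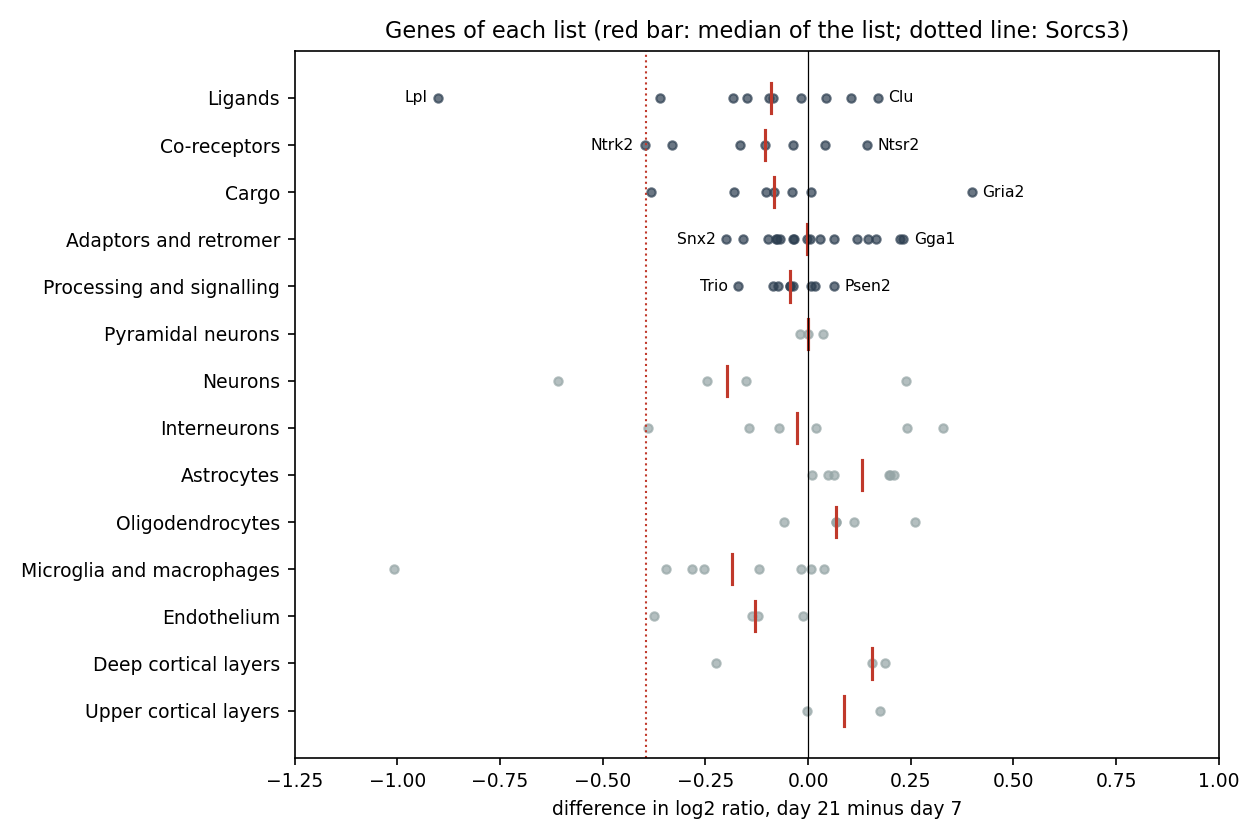
Difference in log2 ratio of sprouting over non-sprouting neurons, day 21 minus day 7 (horizontal axis), for each tested gene of 5 lists of partner genes (dark) and 9 lists of cell type markers (grey), with the list median as a red bar. The Sorcs3 difference of -0.39 is the dotted line, with Ntrk2 beside it and Lpl at -0.90 far to its left.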

How the data were processed

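Per the submitters' processing notes the scans were read with Agilent Feature Extraction (9.1.3.1 per the file headers). Per the file headers, the deposited spot means and local backgrounds are linear intensity values. The log10 ratio of red over green that Feature Extraction wrote, corrected by it for background and dye per the file headers, was turned to log2 for an alternative. Another alternative was the table of log2 red over green ratios deposited by the authors. The normalization and centring of this table were not given in the sources used here. Those columns correlated with the loess ratios of their own arrays at 0.892 to 1.00, with slopes of 0.862 to 1.69, so its scale is not fixed, and had medians of 0.00612 to 0.0259. The 20 columns of that table that match no sample here were left out.

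In limma 3.58.1 (R 4.3.3), background was corrected with normexp (offset 50) and dyes with loess at weight 0 for control spots. Outlier spots were treated as missing, while saturation removed no spot, and repeated spots of a probe entered as their mean. Levels are the 2 channels after quantile scaling of mean intensities between arrays. The 34225 of 41012 probes that passed the filter were fitted with lmFit and eBayes on 1 value per animal, both cohorts in 1 fit, with Benjamini-Hochberg adjustment at 0.05 over all of them; the fit was tested on simulated data with known changes. The animals are separate, so the spread is between animals. Probes were named by symbol, synonym or accession in RefSeq's GRCr8 gene table. The leading probe of a gene is the one of highest mean intensity. Of other genes, the text names 7 fixed ones, the highest and lowest difference of each list, and the 5 most like Sorcs3 by Pearson correlation of ratios and of levels; markers are named where a value is given. Some genes that this rule covers are not reported here. Members and lists were chosen with earlier results of these data known, so their values support nothing independently. Replicate numbers were shared between cohorts of different animals; same-numbered animals correlated at -0.20 to 0.041 in their deviations from the day means, so the numbers do not pair them.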

Additional observations from a re-analysis of the deposited data

Results flagged for a closer look

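Over 54 groups of an array probe, a quantity and a day, 4 held an animal that lay far from the others of its cohort by Dixon's criterion, which chance meets in about 1 in 20 groups. The brighter Sorcs2 probe, A_43_P18895, had a normalized log2 intensity of 7.55 in the sprouting pool of day 7 replicate 2, against 6.68 to 6.86 in the other day 7 animals, and of 7.52 in the non-sprouting pool of the same animal, against 6.73 to 6.90 in the others. Both pools share their arrays, so these groups are not independent. The dye-swap array gave 8.34 in sprouting and 8.28 in non-sprouting neurons, against 6.75 in both on the forward array. The second Sorcs2 probe, A_44_P316381, had a log2 ratio of -0.45 in day 7 replicate 3, against -0.052 to 0.036 in the other day 7 animals. The leading Sorl1 probe, A_42_P552341, had a normalized log2 intensity of 11.55 in the sprouting pool of day 21 replicate 3, against 10.82 to 11.01 in the other day 21 animals.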

How the results depend on the processing

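Sorcs3 was chosen by its difference between the days, and its day 7 ratios all lay above its day 21 ratios. Leaving out an animal could therefore not turn the sign of this difference. It was negative under every alternative run, at -0.44 to -0.33 when any animal was left out and -0.39 with the replicate number as a block. With the scan day as a block it was -0.21, which rests on 1 day 21 and 2 day 7 animals. Of the 104 alternative values of Sorcs3, the other 103 stayed within the spread between animals or, for the tested mean of both days, on the same side of the threshold. No tested value of Sorcs1, Sorcs2, Sort1 or Sorl1 passed the adjusted threshold under any alternative. Their signs near 0 turned as follows; the cause was not tested. For Sorcs1, the day 7 ratio was 0.0011 with Feature Extraction ratios and 0.071 on forward arrays, the difference between days was 0.028 without background correction and 0.045 on dye-swap arrays, and the mean of both days was 0.025 on forward arrays. For Sorcs2, the day 7 ratio was 0.00022 without background correction and 0.0072 on dye-swap arrays, the day 21 ratio 0.054 on forward arrays, the difference -0.015 without background correction, -0.072 on dye-swap arrays and -0.017 with the scan day as a block, and the mean 0.011 on forward arrays. Its level differences were -0.29 in sprouting and -0.28 in non-sprouting neurons with the scan day as a block, an alternative chosen after seeing the data. For Sort1, the day 21 ratio was 0.0056 without background correction, 0.038 with Feature Extraction ratios and 0.10 on forward arrays, and the day 7 ratio -0.088 on dye-swap arrays. Its difference was 0.020 with Feature Extraction ratios, 0.012 on forward arrays and 0.0072 with the scan day as a block, and its mean 0.011, 0.028 and 0.098 under no background correction, Feature Extraction ratios and forward arrays. For Sorl1, the day 7 ratio was -0.039 on dye-swap arrays and the difference -0.20 with the scan day as a block.

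Leaving out 1 animal gave Sorcs1 -0.077 to 0.017 at day 7 and -0.065 to 0.029 in the difference, Sorcs2 -0.020 to 0.021 at day 21, -0.050 to 0.0098 at day 7, -0.015 to 0.044 in the difference and -0.027 to 0.0041 in the mean, Sort1 -0.12 to 0.047 at day 21, -0.054 to 0.038 at day 7, -0.13 to 0.045 in the difference and -0.061 to 0.025 in the mean, and the Sorl1 level in sprouting neurons -0.16 to 0.11 between the days. Over the whole array, where 0 probes passed, the 20 arrays taken singly with a dye effect gave 2 at day 21, 13 at day 7, 1 in the difference and 8 in the mean. Day 7 and the mean each had 1 without background correction, and the mean had 1 with the authors' deposited ratios, 1 with 1 probe per gene and 134 on dye-swap arrays. Leaving out day 21 replicate 1 gave up to 267 in the sprouting and 513 in the non-sprouting levels, against 0 at the low end. Dim signals limit the Sorcs1 and Sorcs2 probes and the second Sorl1 probe most, which had 18 to 34 of 40 channels well above background.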
